A study of Drosophila melanogaster with 11 samples.

Results

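The mitochondrial ribosome of Drosophila melanogaster is built from proteins that are all encoded in the nucleus, and the genes for them carry the symbols mRpL (large subunit) and mRpS (small subunit). The family described here comprised every gene of the count table whose FlyBase symbol begins with mRpL or mRpS, which gave 72 of 13931 genes, 47 of the large and 25 of the small subunit. Membership rested on names alone, but the family was chosen with earlier results of these data known.

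Mitochondria keep their own ribosomes, which translate the few messenger RNAs of the mitochondrial genome, all of them for core subunits of the respiratory chain and of the ATP synthase. The ribosomal RNA of these ribosomes comes from mitochondrial DNA, whereas their proteins are translated in the cytosol and imported, so that the organelle's ribosomes depend on 2 genomes. Many of the proteins have bacterial counterparts, others exist only in mitochondria, and in the fly a reduced supply of them is known to slow growth and development, as in mutants of technical knockout (tko) and bonsai, whose genes encode small-subunit proteins outside the mRp naming scheme. The larval fat body is the insect counterpart of liver and adipose tissue and supplies the reserves used at metamorphosis.

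Poly-A RNA was sequenced from the fat bodies of female larvae in the late wandering stage, shortly before the puparium forms, in 5 isofemale strains collected in Germany (each derived from 1 wild-caught female). The strains differed in nothing else that the labels give. MU14 was represented by 3 libraries and MU10, MU12, MU17 and MU26 by 2 each, every library being made from a pool of dissected fat bodies, so that P values measure the spread between such pools. The question the comparison addresses is how much expression varies within 1 European population.

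The 11 libraries held 34631482 to 49582725 counts. Of the 13931 genes, 8415 averaged 15 or more counts over the libraries and were tested, among them 71 of the 72 family members. The family took 0.0284% to 0.0397% of all counts of a library, or 9830 to 15221 counts. Values are given as CPM, that is counts relative to a library total scaled by TMM, a method meant to correct for differences in composition between libraries. Replicate libraries differed over the members by more than counting noise, with a chi-square of 1.69 to 2.22 per degree of freedom, so no library was a repeat of another. Summed fat body markers, chiefly storage proteins, reached 284000 to 438000 CPM, whereas markers of haemocytes, muscle, salivary gland, female germ line and midgut each summed to less than 111 CPM in every library. In such bulk samples fewer cells of a type and less RNA per cell cannot be told apart.

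The 72 genes were spread over all major chromosome arms, with 12 on 2L, 12 on 2R, 16 on 3L, 21 on 3R and 11 on X (BDGP6.54 annotation, Release 6 assembly). They are short genes: the deposited length of the tested members ranged from 327 to 2078 bases with a median of 774. Exons of 43 members overlapped those of another gene, 42 on the opposite strand and 3 on the same strand. Read pairs that fitted more than 1 gene had been discarded, and whether the counting used strand is not given in the sources used here, so within shared exons reads of a member and its antisense partner cannot be told apart. Over the 29 tested members without overlap the median level was 4.74 CPM per kb and 11 were called across strains, over the 35 with less than 20% of their length shared it was 4.20 CPM per kb and 9 were called, where 48.3% of all tested genes were. The 7 members that shared 20% or more had a median of 4.37 CPM per kb, and 0 of them were called by edgeR, DESeq2 or limma-voom, with 0 at an unadjusted P below 0.05 in each of them.

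mRpL53 was the member that failed the expression minimum. It had 0 counts in 9 libraries and 1 count in each of MU14 replicates 2 and 3. The gene lies at chr2R:13954195-13955664, and all 829 bases of its deposited length coincide with same-strand exons of CG33155, which itself was counted at a mean of 17.2 CPM. The measurement therefore says nothing about the level of mRpL53. For mRpL13 236 of 671 bases are shared with CG10602 on the same strand and for mRpS14 30 of 797 bases with CG32533, so the counts of both are uncertain.

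Per length of gene, the family was expressed near the level of an ordinary fat body gene and far below the cytosolic ribosome. Levels ranged from 1.06 to 24.2 CPM per kb, a 22.9-fold span, with a median of 4.39 CPM per kb over the 71 tested members against 5.36 over all tested genes. The median was 4.80 CPM per kb in the large subunit and 3.92 in the small subunit. By the same measure, the median of 87 tested cytosolic ribosomal protein genes was 802 CPM per kb and that of 64 nuclear genes for oxidative phosphorylation subunits was 28.9. Counts per length thus differed between genes for the proteins of 1 complex. Since read pairs fitting several genes or transcripts had been discarded, this span need not equal that of transcript amounts.

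At the top of the ranking stood mRpL28, the counterpart of bacterial L28, at chr2L:4973976-4975316 with a mean of 24.2 CPM per kb. Its CPM were 26.0, 26.6 and 28.0 in MU14, 27.2 and 32.4 in MU12, 27.1 and 25.8 in MU10, 31.7 and 33.0 in MU26, and 27.1 and 26.7 in MU17. MU26 was highest by the mean, but its lower library lay under the higher library of MU12, and the test across strains was not passed (edgeR adjusted P = 0.127). It was followed by mRpL33 (chrX:4321764-4322231), a very short large-subunit gene with 17.7 CPM per kb, and by mRpS9 with 16.5 CPM per kb. mRpS9, at chr3R:7889277-7902667, encodes a protein whose bacterial homologue reaches with its tail toward the transfer RNA in the peptidyl site. Its CPM were 19.97, 22.6 and 23.5 in MU14, 17.6 and 19.6 in MU12, 23.4 and 24.4 in MU10, 21.2 and 22.9 in MU26, and 20.9 and 18.9 in MU17. MU12 was lowest and MU14 overlapped with the remaining 3 strains, and the test across strains gave an edgeR adjusted P of 0.123. Of its deposited length 25.1% is antisense to ArgRS-m, a mitochondrial arginyl-tRNA synthetase gene counted at 3.56 CPM.

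The lowest levels belonged to mRpS11 with 1.06, mRpL23 with 1.11 and mRpL21 with 1.26 CPM per kb. mRpS11 and mRpL23 were also among the members that varied most between strains, with counts as low as 11 and 9 in single libraries. The most abundant members of the ranking, by contrast, had at least 180 counts in every library.

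**Figure D1:**
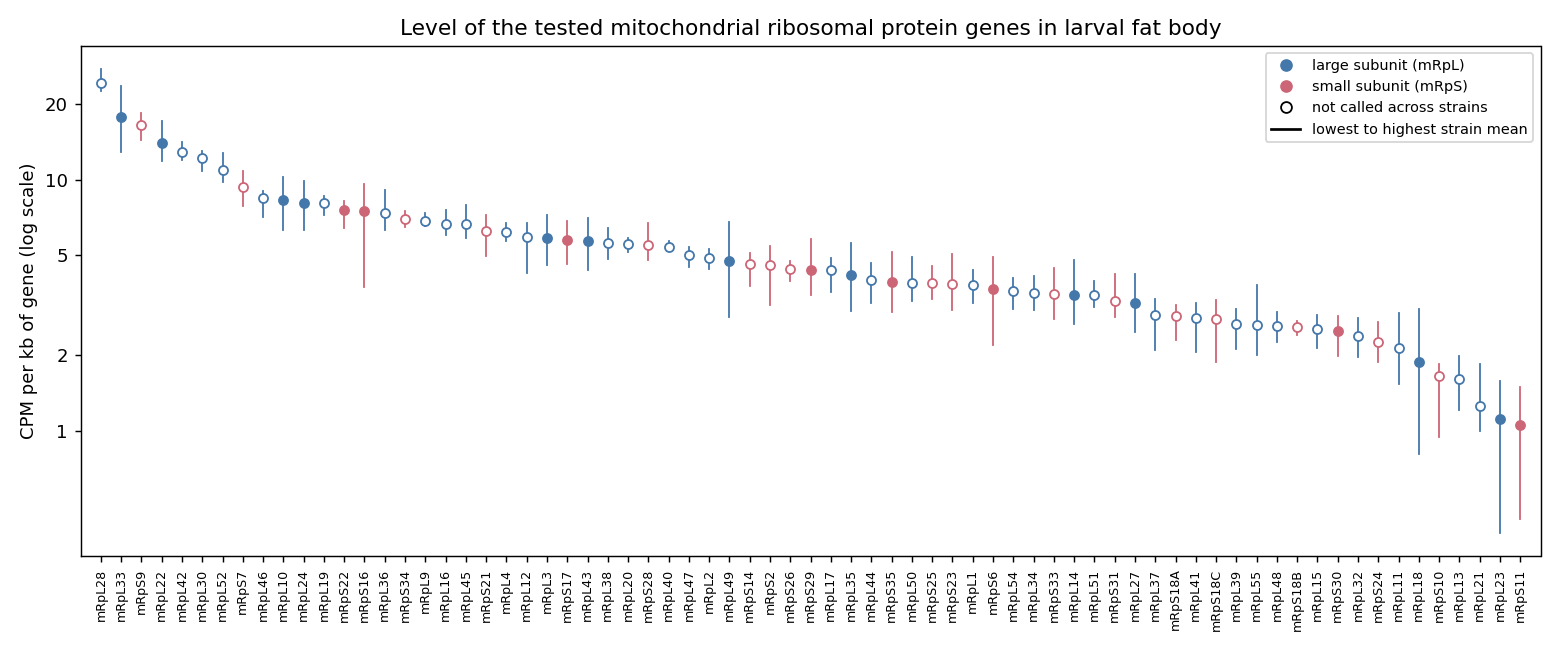
Mean level of each of the 71 tested members in CPM per kb of deposited gene length (log axis), ranked, with a vertical line from the lowest to the highest strain mean. Blue marks large-subunit and red small-subunit genes, and filled points the 20 members called across strains. Levels run from 24.2 for mRpL28 to 1.06 for mRpS11, and the longest lines belong to mRpL23, mRpL18, mRpS11 and mRpS16.

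Summed over the family, MU14 was highest and MU17 and MU10 were lowest. The sums were 364, 374 and 357 CPM in MU14, 331 and 336 in MU12, 325 and 320 in MU10, 358 and 341 in MU26, and 317 and 321 in MU17. The libraries of MU14 and MU26 overlapped, and those of MU10 and MU17 did too. MU14 stood at 1.10 times the mean of the other strains, MU26 at 1.04, MU12 at 0.985, MU10 at 0.943 and MU17 at 0.930. This order depended on the scaling: by plain CPM, without correction for composition, MU14 remained highest at 1.17 and MU26 became lowest at 0.856. The ratio of small-subunit to large-subunit CPM stayed between 0.456 and 0.505 in the 11 libraries, with 0.486 to 0.505 in MU10 and MU14 and 0.456 to 0.467 in the other strains. No test was made on these sums.

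**Figure D2:**
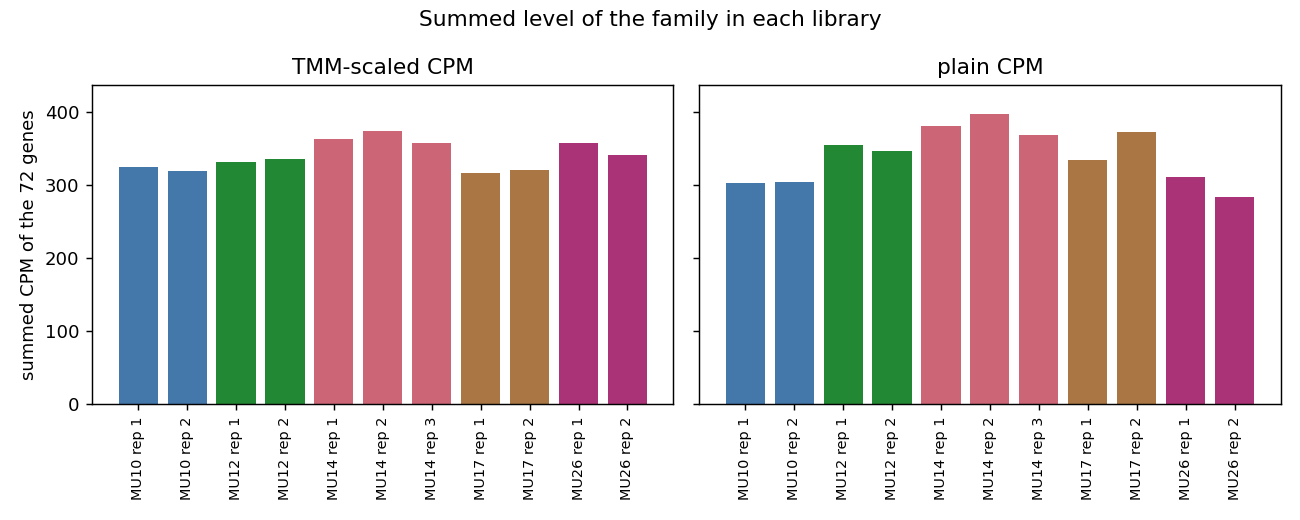
Summed CPM of the 72 genes in each library, by strain (colours), after TMM scaling (left) and as plain CPM (right). By the strain mean MU14 is highest on both scales, at 357 to 374 CPM on the left, with MU17 replicate 2 among its libraries on the right, while MU26 changes from near the top to the lowest place.

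For most members no difference between strains was called, and those that differed included mRpL18, mRpL33, mRpS16 and mRpL35. Across the 5 strains 20 of 71 members, 28.2%, were called at a false discovery rate of 0.05 (edgeR quasi-likelihood test, Benjamini-Hochberg adjusted over all tested genes), against 48.3% of all tested genes and 46.0% of the 5225 tested genes within the members' range of mean CPM. The share was 12 of 46 in the large and 8 of 25 in the small subunit. The median fold between the highest and the lowest strain mean was 1.44 (1.07 to 4.01) for the members and 1.72 for all tested genes. Called members spanned 1.28- to 4.01-fold with a median of 1.71, and the 51 others 1.07- to 1.96-fold with a median of 1.36. Leaving out 1 library moved the count to between 12 and 20. Omitting MU10 replicate 1 gave 12, and omitting either MU10 replicate 2 or MU14 replicate 3 gave 13.

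The strongest evidence of a strain difference belonged to mRpL18 (chr2R:12756434-12757173), a gene of 1 exon whose bacterial counterpart binds 5S ribosomal RNA. Its CPM were 2.45, 2.36 and 1.97 in MU14, 1.90 and 1.82 in MU12, 1.02 and 0.765 in MU10, 0.507 and 0.694 in MU26, and 0.917 and 0.933 in MU17. The libraries of MU12 and MU14 all lay above those of the other 3 strains, with no overlap. The mean was 2.26 ± 0.255 (SD, n = 3) in MU14 and 0.600 ± 0.132 (SD, n = 2) in MU26, a 3.76-fold range (edgeR adjusted P across strains = 0.00122). Against the mean of the other 4 strains, mRpL18 was higher in MU14 by a log2 difference of 1.20 ± 0.15 (SE, edgeR adjusted P = 0.00119) and in MU12 by 0.85 ± 0.18 (edgeR adjusted P = 0.0092). It was lower in MU26, with -1.18 ± 0.22 (edgeR adjusted P = 0.00636). The MU12 call was lost without either MU12 library (edgeR adjusted P = 0.0555 and 0.0528) and the MU26 call without MU26 replicate 1 (edgeR adjusted P = 0.0667). The gene shares 41 of its 740 bases with the antisense gene ox, a mitochondrial complex III gene that is counted at 10.7 CPM and also varied across strains (edgeR adjusted P = 0.0105). The part of ox in the mRpL18 result was not tested.

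mRpS16 and mRpL35 followed a like course. mRpS16 (chr2R:14172986-14173596) encodes the counterpart of a bacterial protein that binds small-subunit RNA early in assembly. It was counted at 5.80, 5.23 and 4.69 CPM in MU14, 5.64 and 4.62 in MU12, 4.02 and 4.59 in MU10, 2.44 and 1.67 in MU26, and 2.98 and 3.33 in MU17. MU12 and MU14 overlapped at the top, MU10 lay just below them, and MU17 and then MU26 followed without overlap (edgeR adjusted P across strains = 0.00412). Against the mean of the other 4 strains, MU26 was lower by a log2 difference of -1.09 ± 0.18 (SE, edgeR adjusted P = 0.004), and MU14 and MU12 were higher by 0.60 and 0.56 (edgeR adjusted P = 0.0149 and 0.0284). The MU12 call of mRpS16 was lost without MU12 replicate 2.

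For mRpL35 (chr3R:22023527-22024341), a large-subunit protein with a bacterial counterpart, CPM were 4.44, 4.32 and 3.89 in MU14, 3.41 and 4.10 in MU12, 2.63 and 2.50 in MU10, 2.25 and 2.60 in MU26, and 2.06 and 2.46 in MU17. All libraries of MU12 and MU14 exceeded all others. The difference from the mean of the other 4 strains was 0.64 ± 0.11 in MU14, 0.43 ± 0.13 in MU12 and -0.48 ± 0.14 in MU17 (log2 with SE, edgeR adjusted P = 0.00456, 0.0363 and 0.0402). For mRpL35 the MU17 call was lost without either MU17 library and the MU12 call without MU12 replicate 2. The antisense partners of mRpS16 and mRpL35, ReepB and CG6028, were counted at 74.1 and 46.2 CPM, and share 13 and 83 bases with them.

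mRpL33 behaved differently from these. Its CPM were 5.50, 5.65 and 4.88 in MU14, 5.61 and 4.89 in MU12, 8.25 and 7.74 in MU10, 8.68 and 7.84 in MU26, and 4.45 and 4.60 in MU17. MU10 and MU26 overlapped each other and lay clear of the other 3 strains, of which MU17 was lowest (edgeR adjusted P across strains = 0.00214). The log2 difference from the mean of the other 4 was 0.55 ± 0.10 in MU26, 0.49 ± 0.10 in MU10 and -0.54 ± 0.11 in MU17 (SE, edgeR adjusted P = 0.0057, 0.0112 and 0.0093). The MU17 call was lost without either MU17 library, and the MU10 call without either MU10 library. Without MU26 replicate 1 the MU26 call was lost. Each of these fits leaves the strain a lone library. The gene has no exonic overlap.

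mRpL23 was the member that set MU10 apart. Its bacterial counterpart lines the mouth of the tunnel through which the new polypeptide leaves the ribosome. The gene at chr3L:2372844-2373704 had 1.04, 0.859 and 1.04 CPM in MU14, 0.517 and 0.679 in MU12, 0.194 and 0.294 in MU10, 0.634 and 0.867 in MU26, and 0.642 and 0.848 in MU17. MU10 lay below every other library, at 9 and 10 counts. Of the others MU14 was highest by the mean, and MU26 overlapped with each of the remaining 3. In all 4 pairs with MU10 the gene was lower in MU10, by log2 differences from -1.30 to -2.01 (largest edgeR adjusted P = 0.0373), which 2.08% of all tested genes were in either direction. Without MU10 replicate 1 the contrast of MU10 with the other 4 was no longer called (log2 difference -1.35, edgeR adjusted P = 0.107). Its antisense partner CG8993, with 33 shared bases, was counted at 30.0 CPM, 43.3 times the level of mRpL23. CG8993 was not called across strains (edgeR adjusted P = 0.0693), and its part in the mRpL23 result was not tested.

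In mRpS11, whose bacterial counterpart sits on the platform of the small subunit near the exit of messenger RNA, MU10 was low as well. The gene at chr3R:17072732-17073795 had 0.324 CPM in both MU10 libraries, 0.957, 1.15 and 0.899 in MU14, 0.728 and 0.869 in MU12, 0.634 and 0.416 in MU26, and 1.03 and 1.15 in MU17. The libraries of MU10 and MU26 lay below all others, with MU10 lowest (edgeR adjusted P across strains = 0.00787). Against the other 4 the log2 difference was -1.34 ± 0.26 in MU10, 0.69 ± 0.19 in MU14 and 0.84 ± 0.21 in MU17 (SE, edgeR adjusted P = 0.0102, 0.0328 and 0.0265). The MU10 call of mRpS11 was lost without either MU10 library, which leaves MU10 a lone library. The MU17 call was lost in 6 of 18 alternatives, among them the omission of MU10 replicate 1, MU10 replicate 2, MU14 replicate 1 and either MU17 library (edgeR adjusted P = 0.0542, 0.0511, 0.05, 0.0973 and 0.174).

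**Figure D3:**
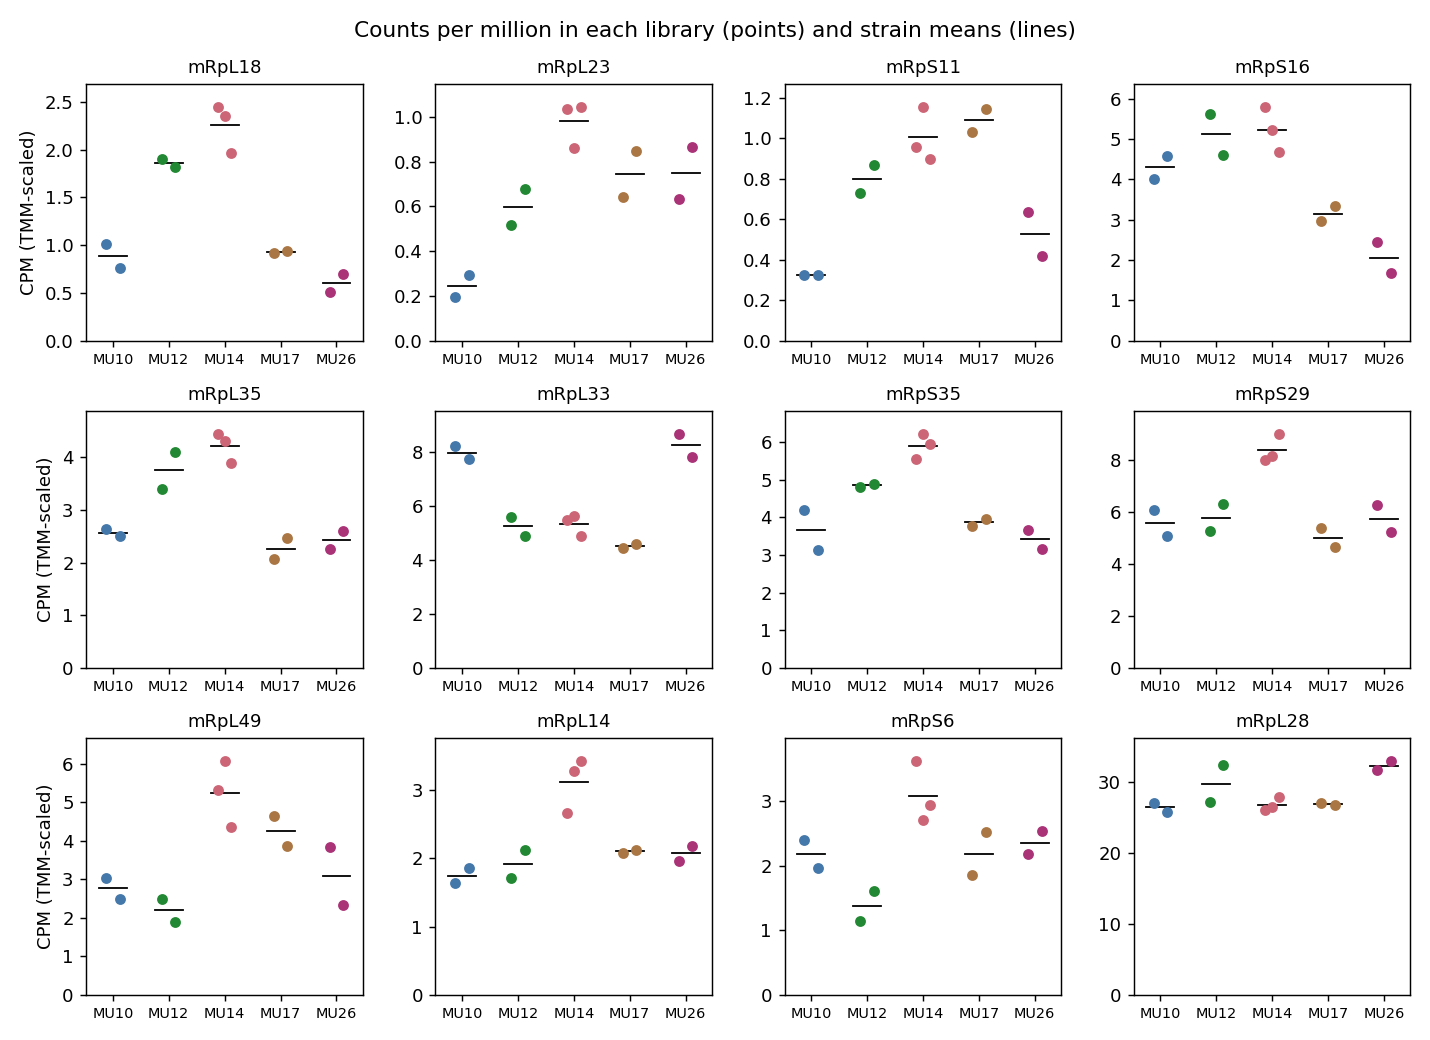
CPM of 12 members in each library (points) with the strain mean (line), each panel with its own linear axis from 0. mRpL18 and mRpL35 are higher in MU12 and MU14 than in the other strains, and mRpS16 is low in MU17 and MU26. mRpL33 is high in MU10 and MU26, mRpL23 is lowest in MU10, and mRpS29 and mRpL14 are highest in MU14.

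In MU14, the strain with 3 libraries, the family's calls were all in 1 direction and included mRpL18, mRpS29, mRpL14 and mRpS35. Against the mean of the other 4 strains, 13 of 71 members were higher in MU14 where 12.1% of all tested genes were, and 0 were lower where 9.35% of all tested genes were (edgeR). DESeq2 and limma-voom also called 0 lower. At an unadjusted P below 0.05, 1 member was lower by edgeR, 1 by DESeq2 and 2 by limma-voom. The median log2 difference over the members was 0.17, with 61 of 71 members above 0, against a median of -0.01 and 48.6% above 0 over all tested genes. In the small subunit 24 of 25 members were above 0 and in the large subunit 37 of 46. The called members were mRpL18, mRpL23, mRpL49, mRpS11, mRpL11, mRpL14, mRpL35, mRpS6, mRpS29, mRpS16, mRpS35, mRpL43 and mRpL3. Without MU14 replicate 1 or MU14 replicate 2 the count fell to 6 in each case, below the 7 and 8 calls of MU12 in both directions in the same fits. Under upper-quartile scaling the median of all tested genes shifted to 0.09 and 16 members were called, and the share of higher among all called genes went from 56.4% to 74.1%. The members exceeded the median of all genes by 0.18 under both scalings. Omitting strain MU17 altogether gave 14 higher and 1 lower.

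Some marker genes of other tissues were also called higher in MU14, where 12.1% of all tested genes were. Female germ line markers summed to 9.74 to 14.6 CPM in MU14 and 2.63 to 6.83 elsewhere, with 3 of 3 tested markers called higher. Salivary gland markers summed to 28.4 to 93.4 CPM in MU14, 43.4 to 110 in MU17 and 3.50 to 17.0 in the other strains, with 3 of 5 called higher in MU14. Of the germ line markers, vas, a helicase of germ cells, had strain means of 1.02, 1.24, 5.55, 1.54 and 1.87 CPM in MU10, MU12, MU14, MU17 and MU26. Of 5 haemocyte markers 3 were above 0 in MU14 and 1 was called higher, Pxn (log2 difference 0.62, edgeR adjusted P = 0.0174). Haemocyte markers summed to 52.5 to 72.1 CPM in MU14, within the 25.7 to 84.5 CPM of the other strains. The 1 midgut marker that was tested, alphaTry, was called higher (1.66, edgeR adjusted P = 0.0142). Midgut markers summed to 0.486 to 1.18 CPM in MU14 and to 0.0634 to 0.794 elsewhere. Of 6 muscle markers 1 was lower. Of the 8 fat body markers 0 were above 0 in MU14, with a median log2 difference of -0.30, but 0 were called lower (background 9.35%). Their sum was 284000 to 300800 CPM in MU14 and 292700 to 438000 elsewhere. The part of these tissues in the MU14 result was not tested.

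Among the members called in MU14, mRpS29 was the one that set the strain apart in all 4 pairs. It encodes the counterpart of mammalian DAP3, a GTP-binding protein of the small subunit. The gene, 1 exon at chr2R:22418937-22420376, was counted at 8.03, 8.15 and 9.01 CPM in MU14, 5.26 and 6.33 in MU12, 6.09 and 5.09 in MU10, 6.27 and 5.24 in MU26, and 5.39 and 4.64 in MU17. Every MU14 library was above every other library, and the other 4 strains overlapped. The log2 differences in the 4 pairs were 0.54 to 0.74 (largest edgeR adjusted P = 0.0352), a pattern met in either direction by 2.10% of all tested genes for MU14. Its antisense partner qkr58E-2 (21.6 CPM) was not called across strains (edgeR adjusted P = 0.215), and its part in the mRpS29 result was not tested. The call of mRpS29 across strains was lost without MU14 replicate 3 (edgeR adjusted P = 0.0522) and with a replicate block (edgeR adjusted P = 0.0737).

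mRpS35, a small-subunit protein without a bacterial homologue, at chr3L:2780899-2782105, had 5.56, 6.2 and 5.95 CPM in MU14, 4.81 and 4.89 in MU12, 4.19 and 3.12 in MU10, 3.67 and 3.16 in MU26, and 3.78 and 3.94 in MU17. MU14 was again above every other library, with MU12 next (log2 difference of MU14 from the other 4, 0.59 ± 0.11, edgeR adjusted P = 0.00568). mRpL14, on the face of the large subunit that meets the small one, at chrX:2343997-2344649, had 2.66, 3.29 and 3.42 CPM in MU14, 1.71 and 2.12 in MU12, 1.64 and 1.85 in MU10, 1.96 and 2.19 in MU26, and 2.09 and 2.12 in MU17. All 3 MU14 libraries exceeded all 8 others, which lay between 1.64 and 2.19 (0.68 ± 0.13, edgeR adjusted P = 0.00695). Its call across strains was lost without MU14 replicate 2 or MU14 replicate 3 and with a replicate block (edgeR adjusted P = 0.0707, 0.0718 and 0.0551).

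mRpL49 and mRpS6 were high in MU14 and low in MU12. mRpL49 encodes a large-subunit protein specific to mitochondria, at chrX:12907105-12907942. Its CPM were 5.32, 6.07 and 4.35 in MU14, 2.49 and 1.90 in MU12, 3.05 and 2.50 in MU10, 3.83 and 2.32 in MU26, and 4.65 and 3.86 in MU17. MU14 and MU17 overlapped at the top, and below them MU26 overlapped with both MU12 and MU10. The log2 difference from the other 4 was 0.81 ± 0.17 in MU14 and -0.76 ± 0.23 in MU12 (SE, edgeR adjusted P = 0.013 and 0.0382). The MU12 call of mRpL49 was lost without MU12 replicate 2, and its call across strains in 1 of 19 alternatives. For mRpS6 (chr3L:4364550-4365243), whose bacterial counterpart pairs with S18, CPM were 3.62, 2.70 and 2.94 in MU14, 1.15 and 1.60 in MU12, 2.40 and 1.97 in MU10, 2.19 and 2.53 in MU26, and 1.86 and 2.52 in MU17. Both MU12 libraries were below all others and all MU14 libraries above all others (0.64 ± 0.16 in MU14 and -0.82 ± 0.21 in MU12, edgeR adjusted P = 0.0257 and 0.0221). Without MU12 replicate 1 the MU12 call was lost (-0.59, edgeR adjusted P = 0.155). The call of mRpS6 across strains was lost without MU12 replicate 1, MU14 replicate 1 or MU14 replicate 3 and with a replicate block (edgeR adjusted P = 0.0903, 0.081, 0.0611 and 0.0856).

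**Figure D4:**
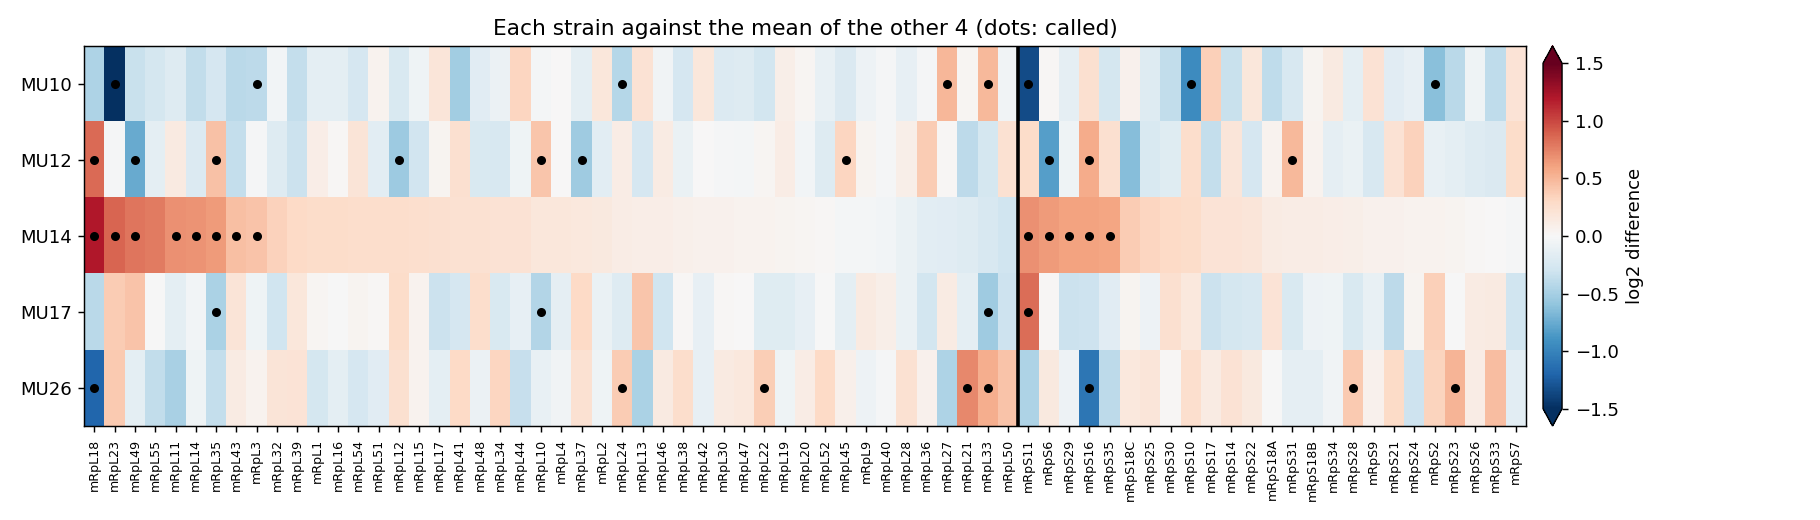
Log2 difference of each strain from the mean of the other 4 for the 71 tested members, large subunit left and small subunit right of the line, each ordered by its value in MU14. Red is higher and blue lower, colours end at 1.5 in either direction, and dots mark the calls. The MU14 row is red for 61 of 71 members and holds 13 dots, all on red.

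In the other 4 strains calls went both ways. In MU10 2 members were higher (background 9.78%) and 6 lower (7.52%), namely mRpL27 and mRpL33 against mRpL23, mRpS11, mRpS10, mRpS2, mRpL24 and mRpL3. In MU12 6 were higher (14.4%) and 4 lower (11.4%). In MU17 1 was higher (10.4%), mRpS11, and 3 lower (8.31%), mRpL33, mRpL35 and mRpL10. In MU26 6 were higher (10.9%), namely mRpL21, mRpL33, mRpS23, mRpS28, mRpL24 and mRpL22, and 2 lower (10.6%), mRpL18 and mRpS16. By the strain mean, 28 members were highest and 1 lowest in MU14, while 7 were highest and 23 lowest in MU10. Upper-quartile scaling turned the calls of all tested genes in MU10 from 56.5% to 44.9% higher, with 1 member higher and 8 lower.

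The member with the largest positive difference in MU10 was mRpL27, whose bacterial counterpart reaches into the peptidyl transferase centre. At chr2L:4458595-4459638, it had 2.45, 2.70 and 2.67 CPM in MU14, 2.98 and 2.80 in MU12, 4.19 and 3.35 in MU10, 2.53 and 1.91 in MU26, and 3.16 and 2.99 in MU17. Both MU10 libraries were above all others, the lower of them narrowly (log2 difference 0.50 ± 0.14, edgeR adjusted P = 0.0392). This call was lost in 12 of 19 alternatives, and the call across strains, at an edgeR adjusted P of 0.0479, in 16 of 19. Leaving out MU10 replicate 1 gave the highest values, 0.367 and 0.170 as edgeR adjusted P. In MU26 the largest positive difference was that of mRpL21 (chr3L:19253290-19255061), a large-subunit gene with a bacterial counterpart. It had 1.52, 2.43 and 1.72 CPM in MU14, 1.79 and 1.60 in MU12, 2.48 and 1.79 in MU10, 3.64 and 2.64 in MU26, and 1.93 and 1.97 in MU17. Both MU26 libraries were highest (0.71 ± 0.21, edgeR adjusted P = 0.0405), whereas the test across strains was not passed (edgeR adjusted P = 0.104). The MU26 call was lost in 12 of 19 alternatives, with an edgeR adjusted P of 0.345 without MU26 replicate 1.

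**Figure D5:**
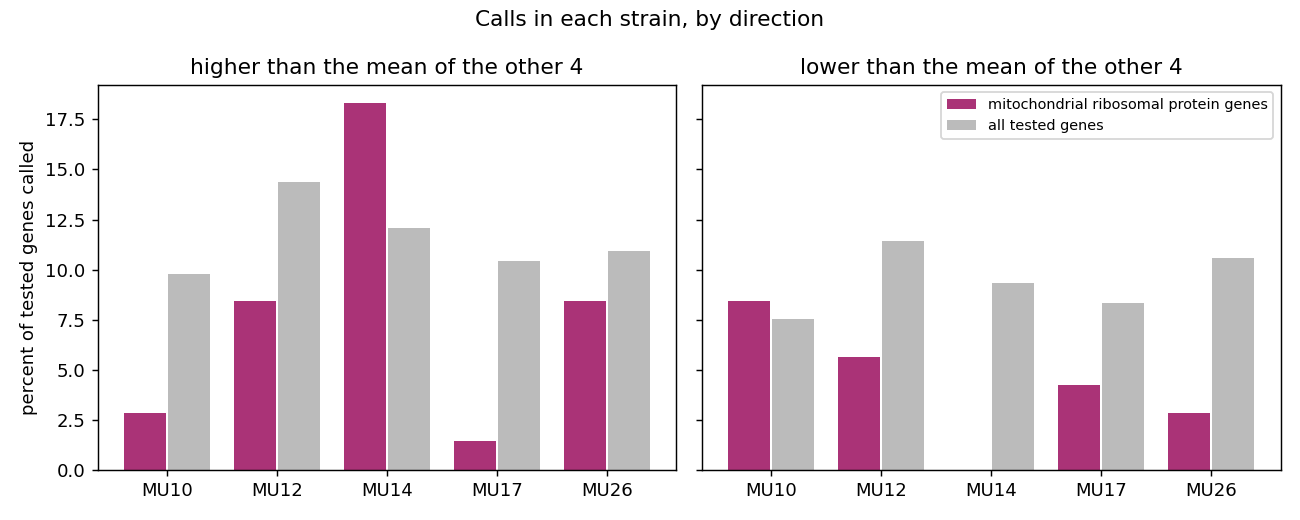
Percent of tested genes called higher (left) or lower (right) in each strain than the mean of the other 4, for the family (71 genes) and for all 8415 tested genes. The family bar is above the background for MU14 higher and slightly for MU10 lower, and MU14 lower is 0.

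In the 10 pairs of strains, 33 of 71 members, 46.5%, were called in at least 1 pair against 59.9% of all tested genes, with 79 calls in all, and 37 members were called in no test. The pairs share strains and are not independent. MU10 against MU14 gave the most, 13 members (background 19.2%), 12 of them higher in MU14 (9.63%). Next came MU14 against MU26 with 10 (19.9%), 8 of them higher in MU14 (10.6%), and MU10 against MU26 with 9 (15.5%). MU12 against MU17 also gave 9 (21.0%), 6 of them higher in MU12 (10.6%). Both MU12 against MU14 (26.5%) and MU14 against MU17 (16.6%) gave 7, in each case all higher in MU14 (13.3% and 8.2%). MU10 against MU12 gave 7 (19.6%), MU10 against MU17 6 (19.0%), MU12 against MU26 6 (25.1%) and MU17 against MU26 5 (20.9%). The largest difference of any member in a pair was that of mRpL23 between MU10 and MU14.

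Proteins of the mitochondrial ribosome whose genes carry other names, or whose row had an older identifier, were described beside the family. CG4866 was counted among the 5 such genes by an older name alone, and its place in the mitochondrial ribosome was not tested. Of the 5 genes 1 was called across strains, CRIF, where 48.3% of all tested genes were. The strain means of CRIF were 6.57, 8.53, 7.09, 6.03 and 7.35 CPM in MU10, MU12, MU14, MU17 and MU26 (edgeR adjusted P = 0.0479). mRpS5 stands in the count table under a retired identifier that leads to its name only through its CG number, and so was not a member by the rule. At 26.4 CPM per kb it was more abundant than any member, and its libraries lay between 33.7 and 43.2 CPM without a call across strains (edgeR adjusted P = 0.518). tko, which encodes the S12 protein of the decoding centre, had 4.07, 3.07 and 2.96 CPM in MU14, 2.18 and 2.80 in MU12, 1.79 and 2.32 in MU10, 2.73 and 2.64 in MU26, and 2.32 and 2.46 in MU17. All MU14 libraries were above all others, with a log2 difference of 0.49 (edgeR adjusted P = 0.0421), while the test across strains was not passed (edgeR adjusted P = 0.0889). bonsai, the S15 gene, stayed between 3.85 and 5.43 CPM (edgeR adjusted P = 0.345).

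Among other genes of mitochondrial gene expression and of the machines it serves, the translation factor mIF2, the import channel gene Tim23 and the growth regulator Myc differed between strains. Across strains 4 of 8 mitochondrial translation factors, 3 of 15 mitochondrial aminoacyl-tRNA synthetases, 5 of 14 genes of mitochondrial DNA expression and maintenance, 5 of 11 import and chaperone genes, 16 of 64 nuclear oxidative phosphorylation genes, 8 of 13 genes of the mitochondrial genome and 86 of 87 cytosolic ribosomal protein genes were called. These shares stand beside 28.2% for the members and 48.3% for all tested genes, and were not tested against either. The initiation factor gene mIF2 had strain means of 0.592, 1.38, 1.47, 1.99 and 2.96 CPM in MU10, MU12, MU14, MU17 and MU26, so that MU26 was 5.01 times MU10 (edgeR adjusted P = 0.0034). It was lower in MU10 by a log2 difference of -1.63 and higher in MU26 by 1.25 against the other 4 (edgeR adjusted P = 0.00404 and 0.00411). Tim23, the channel of the inner membrane through which imported proteins pass, had means of 27.65, 20.4, 36.6, 37.1 and 42.8 CPM in the same order, lowest in MU12 (edgeR adjusted P across strains = 0.00627).

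In MU14, 3 of 14 genes of mitochondrial DNA expression and maintenance were higher (background 12.1%) and 0 were lower (9.35%). Among the higher genes was PolG1, the catalytic subunit of the mitochondrial DNA polymerase. Its strain means were 1.38, 2.21, 3.35, 1.83 and 1.63 CPM in MU10, MU12, MU14, MU17 and MU26. Lrpprc2, a relative of the mammalian LRPPRC, which stabilises mitochondrial messenger RNA, had 10.1, 8.995, 14.5, 8.50 and 6.87 CPM in the same order. Both were highest in MU14, with log2 differences of 0.94 and 0.77 (edgeR adjusted P = 0.00851 and 0.00493). Of the nuclear oxidative phosphorylation genes 7 of 64 were higher in MU14, where 12.1% of all tested genes were. Of the same 64 genes 0 were lower in MU14 (background 9.35%), and 57 were above 0. In MU17 15 of the nuclear oxidative phosphorylation genes were lower, where 8.31% of all tested genes were. Of the cytosolic ribosomal protein genes 28 of 87 were higher in MU14 (background 12.1%), 1 was lower (9.35%) and 83 were above 0. Their calls in other strains were more numerous, with 79 higher in MU26 (10.9%), 59 lower in MU17 (8.31%) and 48 lower in MU12 (11.4%). Myc, a transcription factor known in the fly to promote the expression of ribosome and growth genes, had means of 6.50, 4.22, 11.4, 7.45 and 5.50 CPM. It was higher in MU14 by a log2 difference of 0.98 (edgeR adjusted P = 0.00123) and lower in MU12 by -0.82 (edgeR adjusted P = 0.00803). The genes of the mitochondrial genome, whose transcripts the mitochondrial ribosome translates, had 5 of 13 higher in MU14 (background 12.1%) and 0 lower (9.35%). In MU10, the strain in which 23 members had their lowest mean, 6 of 13 were higher (9.78%). For mt:ND1, a complex I subunit, the means were 1098, 582, 745, 582 and 619 CPM, higher in MU10 by 0.80 (edgeR adjusted P = 0.000457).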

How the data were processed

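The authors sequenced poly-A RNA as paired reads, mapped them with NextGenMap to the FlyBase 6.21 transcriptome, removed ambiguous pairs (those fitting several genes or transcripts), and deposited raw counts per gene for the 11 libraries, summed over transcripts and not normalised. The deposited length of each gene (unit other, in bases, handling of isoforms not given in the sources used here) served to express levels per kb. All columns were mapped to samples by label. Of 13931 identifiers 13842 were matched to a symbol by FlyBase number, 76 by CG number and 13 kept none. Positions are from BDGP6.54.

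Libraries were grouped by strain. Genes averaging 15 or more counts entered TMM scaling and edgeR 4.0.16 (R 4.3.3) quasi-likelihood fits with 1 coefficient per strain, tested across strains, in each pair and each strain against the other 4 strains' mean, with Benjamini-Hochberg adjustment over all 8415 genes at 0.05. The common biological coefficient of variation was 0.225. SE is the log2 difference divided by the root of the F statistic. Depth, 34631482 to 49582725 counts, put the least abundant tested member at 9 counts in its lowest library, and counting intervals would cover counting error only.

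On simulated counts for 8415 genes, the test of MU17 against the others recovered 31 of 50 genes at a true fold of 2 and 10 of 50 at 1.5. The test across strains recovered 10 and 0 of 50. False calls over all simulated folds were 8 and 9 in the 2 tests. Far fewer genes were changed, and in MU17 alone, than the 48.3% called in the data. The adjustment was therefore stricter, and these rates need not hold for the members. Alternatives were other scalings, other filters, DESeq2 1.42.0, limma-voom (limma 3.58.1), a replicate block, omission of MU17 and of each library. The members, lists and tests were chosen with earlier results of these data known. Members named with values were the 3 most and 3 least abundant, the 10 with the smallest P across strains, the largest difference in each strain and direction, the 4 profiles farthest from the family's, and those below the minimum. Of the other lists up to 3 genes with the smallest P across strains qualified. mRpS5 was named for its identifier, and antisense partners for their overlap.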

Additional observations from a re-analysis of the deposited data

How the results depend on the processing

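For the named members, 385 of the values under the alternatives kept their direction and their side of the threshold, 64 lost a call, 1 gained one (mRpL28 across strains without MU12 replicate 1, edgeR adjusted P = 0.0455) and 0 reversed. The calls of mRpL18, mRpL33, mRpL35, mRpS11, mRpS16 and mRpS35 across strains held in every alternative that was run. For the counts and the summed level, 210 values stayed near the first value and 123 moved. The cause of these moves was not tested.

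Without the filter on low counts, which raises the number of genes adjusted for, 3 members were called in MU10, 4 in MU12, 4 in MU26 and 16 in at least 1 pair. In single pairs this setting gave 3 for MU10 against MU12, 3 for MU10 against MU17, 4 for MU10 against MU26, 4 for MU12 against MU14, 3 for MU12 against MU17, 3 for MU12 against MU26, 5 for MU14 against MU26 and 2 for MU17 against MU26. Limma-voom gave 5 in MU10. Without strain MU17 there were 6 in MU12. Upper-quartile scaling gave 12 for MU12 against MU14, 5 for MU12 against MU17 and 3 for MU17 against MU26. The summed level relative to the other strains was 0.892 in MU10, 0.964 in MU12 and 1.18 in MU14 by upper-quartile scaling, and 0.878, 1.048, 1.17, 1.06 and 0.856 in MU10, MU12, MU14, MU17 and MU26 by plain CPM.

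The labels do not say whether a replicate number marks a shared day or batch. The deviations of same-numbered libraries from their strain means correlated at -0.37 to 0.35. In strains of 2 libraries these deviations mirror each other, so the correlations cannot decide whether the numbers pair the samples. With a replicate block 11 members were called across strains, 5 in MU10, 5 in MU12, 7 in MU14, 2 in MU17 and 18 in at least 1 pair. The block gave 3 for MU10 against MU12, 5 for MU10 against MU26, 4 for MU12 against MU14, 4 for MU12 against MU17, 3 for MU14 against MU17, 6 for MU14 against MU26 and 2 for MU17 against MU26.

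Leaving out 1 library, which leaves a strain of 2 with a lone library assumed to vary like the others, gave 12 to 20 members across strains, 0 to 8 in MU10, 1 to 10 in MU12, 6 to 14 in MU14, 0 to 5 in MU17, 1 to 8 in MU26 and 16 to 28 in at least 1 pair. The lowest counts came without MU10 replicate 1 (MU10 0, at least 1 pair 16), MU12 replicate 2 (MU12 1), either MU17 library (MU17 0) and MU26 replicate 1 (MU26 1). By pair the ranges were 0 to 7 for MU10 against MU12, 3 to 15 for MU10 against MU14, 2 to 5 for MU10 against MU17, 1 to 8 for MU10 against MU26, 4 to 9 for MU12 against MU14, 0 to 8 for MU12 against MU17, 3 to 7 for MU12 against MU26, 2 to 7 for MU14 against MU17, 4 to 9 for MU14 against MU26 and 1 to 5 for MU17 against MU26. With 2 libraries in most strains, a missing call does not show equal expression, and members of few counts are measured least precisely.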
